A study of Mus musculus with 65 samples.

Results

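The 307 sites described here are the MEF2D-only sites with little H3K27ac in Control cerebellum, chosen from the 1419 sites of the deposited H3K27ac count table. A site was taken if it did not overlap a MEF2A peak by 1 bp or more and if its level, averaged over the 9 Control libraries, was below 2 RPM (reads per 1000000 of the library total). The other MEF2D-only sites number 914, and 198 sites overlap a MEF2A peak. All 307 sites overlap a peak of the deposited MEF2D list, which holds 1388 peaks, and none overlaps any of the 203 MEF2A peaks. Since the rule read the Control level, that level is given below as a description only.

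The study asked how far the paralogous factors MEF2A and MEF2D depend on one another. It used cerebellum of C57BL/6 mice in 3 lines, with a conditional knockout (cKO) of MEF2A, of MEF2D or of both (MEF2AD), each set against a Control group of its own line. H3K27ac was measured by ChIP-seq in 3 cKO and 3 Control libraries per line, and RNA in 4 cKO and 4 Control libraries per line. All of these libraries are labelled female, and the extraction protocol gives postnatal day 22 for the RNA. The Cre driver, and so the cells that lose each gene, is not given in the sources used here, nor is the genotype of the Controls beyond their name. The titles of the RNA libraries carry the word Rotarod, while the table used holds them as baseline counts. Of the 2 input libraries, 1 is labelled with the MEF2AD cKO genotype and 1 with that of its Control. Both list the H3K27ac antibody although their titles call them inputs.

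MEF2 proteins are transcription factors that bind a short A/T-rich motif as dimers and regulate genes of muscle, immune cells and neurons. In the cerebellum they are known from granule neurons, where activity-dependent MEF2 signalling shapes synapses. Acetylation of lysine 27 on histone H3 marks active enhancers and promoters, and it is laid down by coactivators such as p300 that MEF2 factors can recruit. A site that holds a factor but little of the mark is therefore a bound region that looks inactive or weakly active by this measure in the tissue as a whole. In bulk tissue, a mark present in few cells and a weak mark in many cells cannot be told apart.

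In the RNA libraries, Mef2a fell in MEF2A cKO (log2 difference −1.33 ± 0.06, SE, limma adjusted p = 5.4e-14) and in MEF2AD cKO (−1.01 ± 0.06, limma adjusted p = 1.69e-11). Reads over the whole Mef2d gene did not fall. Their log2 difference was 0.19 ± 0.08 in the libraries labelled MEF2D cKO (limma adjusted p = 0.165) and 0.32 ± 0.08 in those labelled MEF2AD cKO (limma adjusted p = 0.017). Which exons were deleted is not given in the sources used here, so the gene-level reads do not check the Mef2d label, and groups are called by their labels throughout. Granule neuron markers were high in Control RNA, with means of 714 CPM for Gabra6 and 1796 CPM for Fat2, while the choroid plexus gene Ttr ran from 4.87 to 1675 CPM among Control libraries. H3K27ac libraries held 8694657 to 48557960 reads, and a median member had between 4 reads (MEF2AD cKO 3) and 33 reads (MEF2AD Control 1) per library.

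Sequence could be read only where a member overlaps a RefSeq promoter window (GRCm38.p6, 250 bases before to 50 after a gene start), which gave 15 windows over 13 members. The runs below are the shared bases upstream of the gene start, on the gene's strand from 5′ to 3′, and capitals mark matches to the MEF2 consensus, a 10-base A/T-rich motif that reads the same on both strands, with at most 1 mismatch. The choice among them was made after their values were seen. Perm1 is shown as the one promoter member with lower H3K27ac in both the MEF2D and the MEF2AD line. Atf3 and 9330104G04Rik are shown because they hold the exact consensus, and N4bp2l2 because its H3K27ac was called higher in MEF2AD cKO under one of the scalings.
Perm1, chr4:156215688-156215926, plus strand: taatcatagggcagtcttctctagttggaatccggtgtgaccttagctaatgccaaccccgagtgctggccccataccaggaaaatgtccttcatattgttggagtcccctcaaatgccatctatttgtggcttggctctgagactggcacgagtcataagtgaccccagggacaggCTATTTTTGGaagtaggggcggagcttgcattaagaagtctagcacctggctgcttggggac
Atf3, chr1:191183334-191183386, minus strand: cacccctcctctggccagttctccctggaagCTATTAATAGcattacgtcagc
9330104G04Rik, chr7:16874887-16875136, minus strand: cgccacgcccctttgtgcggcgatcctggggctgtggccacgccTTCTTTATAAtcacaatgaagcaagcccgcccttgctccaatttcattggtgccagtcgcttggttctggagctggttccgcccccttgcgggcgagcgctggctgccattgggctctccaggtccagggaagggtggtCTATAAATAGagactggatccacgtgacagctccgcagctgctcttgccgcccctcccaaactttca
N4bp2l2, chr5:150665613-150665860, minus strand: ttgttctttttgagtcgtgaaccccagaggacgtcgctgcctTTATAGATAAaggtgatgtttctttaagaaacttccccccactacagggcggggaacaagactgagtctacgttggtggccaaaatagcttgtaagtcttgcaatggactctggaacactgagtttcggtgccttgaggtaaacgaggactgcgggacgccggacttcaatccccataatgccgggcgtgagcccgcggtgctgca
The Perm1 run holds CTATTTTTGG, which differs from the consensus at 1 base, and the Atf3 run holds the exact CTATTAATAG. The 9330104G04Rik run, which lies across from the start of the Wnt pathway gene Dact3, holds the exact CTATAAATAG and a second match with 1 mismatch.

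Over whole windows, 2 of 15 windows at the low MEF2D-only sites (13.3%) held the exact consensus, against 27 of 74 (36.5%) at the other MEF2D-only sites and 13 of 24 (54.2%) at the sites that overlap a MEF2A peak. Among all 32851 promoter windows, 1047 (3.19%) held it. With 1 mismatch allowed, the counts were 9 of 15 (60%), 39 of 74 (52.7%), 17 of 24 (70.8%) and 8846 of all windows (26.9%). These windows cover few of the members, and a window without a match says only that these letters are not in it.

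The Control level of the members had a median of 1.11 RPM, with quartiles of 0.712 and 1.57, against medians of 4.76 RPM at the other MEF2D-only sites and 4.95 RPM at the MEF2A-overlapping sites. The sites were also shorter, with a median of 261 bp against 322.5 and 359 bp. Per 1000 bp of site, the medians were 4.26, 15.2 and 15.7 RPM, in the same order. The members were not empty of the mark: the Control level was at least 2 times the input level at 268 of the 307 sites (87.3%), where the median input level was 0.188 RPM. It was at or below input at 23 sites. A median member had 2 reads in each input library, so the input level of a single site is imprecise. The threshold cuts a continuous range: the members just inside it had 1.98, 1.997 and 1.999 RPM, and the MEF2D-only sites just outside it had 2.001, 2.001 and 2.004 RPM.

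Of the 23 sites at or below input, 13 lie on chromosome Y between positions 6014049 and 7031786 and had no read in any of the 20 libraries, all of which are labelled female. The MEF2A and MEF2D ChIP libraries behind the peak lists include some labelled male. These 13 members carry no information on H3K27ac here. Of the remaining 294 members, the lowest Control level was 0.0350 RPM, at chr3:51481110-51481333, which lies 2633 bp from the start of Rab33b.

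The members lay farther from gene starts than the other classes. Of 293 members on chromosomes with promoter windows, 18 (6.14%) were within 1000 bp of an annotated start, against 107 of 872 other MEF2D-only sites (12.3%) and 29 of 187 MEF2A-overlapping sites (15.5%). At the far end, 119 members (40.6%) were over 50000 bp away, against 31.8% and 26.7%. A protein-coding gene body held 165 of the 307 members (53.7%), against 62.8% and 56.1%. Without the members on chromosome Y, 106 of 280 (37.9%) were over 50000 bp away, and a gene body held 165 of 294 (56.1%). Another site of the table lay within 10000 bp of 18 members, 12 of them on chromosome Y.

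Summed over all members, H3K27ac was lower in the libraries labelled MEF2D cKO and MEF2AD cKO than in their Controls, and not in MEF2A cKO. The sums were 359.1, 333.5 and 392.9 RPM in MEF2A cKO, against 361.3, 317.5 and 348.9 RPM in its Controls. They were 212.5, 238.7 and 224.9 RPM in the libraries labelled MEF2D cKO, against 314.3, 350.3 and 352.9 RPM in their Controls. They were 193.2, 186.3 and 146.7 RPM in the libraries labelled MEF2AD cKO, against 348.7, 302.9 and 322.2 RPM in their Controls. The MEF2A groups overlapped, while in both other lines every cKO library stood below every Control library. At the other MEF2D-only and the MEF2A-overlapping sites the sums of both those lines were apart too. There the MEF2A cKO sums also lay below all Controls. They were 4937 to 5160 against 5342 to 5471 RPM at other MEF2D-only sites, and 1079 to 1163 against 1189 to 1242 RPM at MEF2A-overlapping sites.

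The input libraries gave 51.4 RPM (cKO) and 61.9 RPM (Control) over the same sites. As a ratio of group means, cKO over Control was 1.06 in MEF2A, 0.664 in MEF2D and 0.540 in MEF2AD. The last value was 0.585 without MEF2AD cKO 3, the library with the lowest sum of the 18 ChIP libraries and, after MEF2AD Control 3, the fewest reads. At the other MEF2D-only sites the ratios were 0.938, 0.785 and 0.728, and at the MEF2A-overlapping sites 0.928, 0.900 and 0.835. After the mean input was subtracted, the ratios at the members were 1.07, 0.597 and 0.443.

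**Figure D1:**
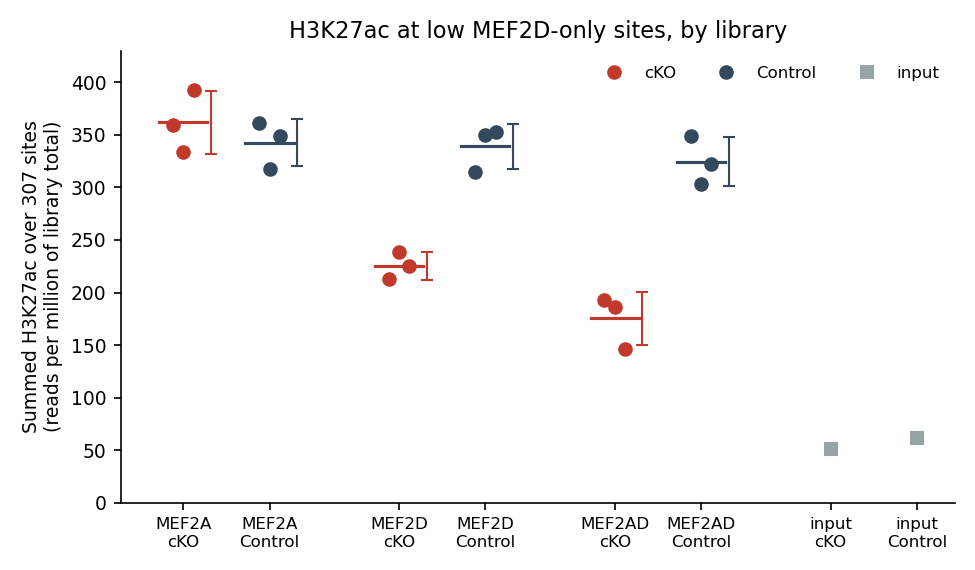
Summed H3K27ac over the 307 members (vertical axis, RPM) in each library, with cKO left of Control in each line, group means as lines, and the 2 inputs at the right. In the MEF2D and MEF2AD lines all cKO libraries, at 146.7 to 238.7 RPM, lie below all Control libraries, at 302.9 to 352.9 RPM, and in the MEF2A line the groups overlap.

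Site by site, 270 of the 307 members passed the low-count filter of edgeR, which left out the 13 members on chromosome Y and 24 elsewhere. Calls below are from edgeR's quasi-likelihood test with Benjamini-Hochberg adjustment over all 1371 sites tested, at a threshold of 0.05. Scaling by TMM takes the typical site of the table as unchanged, while scaling by library totals does not. The choice matters: the median log2 difference over all sites was −0.01 by TMM and −0.36 by library totals in MEF2D, and −0.01 and −0.51 in MEF2AD. The rule read the same Control libraries, so these counts describe the members.

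In the libraries labelled MEF2D cKO, 57 of 270 members (21.1%) were called lower and 15 (5.56%) higher by TMM, while 20.3% of all sites were lower and 14.2% higher. The share of lower calls was near that of all sites. By library totals 108 members (40.0%) were lower and 1 higher, while 41.2% of all sites were lower and 0.584% higher. All 57 members lower by TMM were also lower by library totals, but only 1 of the 15 higher ones was also higher. The median log2 difference of the members was −0.26 by TMM and −0.60 by library totals, against 0.00 and −0.36 at the other MEF2D-only sites.

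In the libraries labelled MEF2AD cKO, 100 members (37.0%) were lower and 22 (8.15%) higher by TMM, while 32.6% of all sites were lower and 29.5% higher. By library totals the counts were 159 lower (58.9%) and 0 higher, while 54.9% and 2.04% of all sites were called. At an unadjusted p below 0.05 the edgeR fit with library totals had 166 of 270 members lower and 2 higher. In either direction that fit had 824 of all 1371 sites at that level. DESeq2 called 16 members higher after adjustment with its own scaling. All 100 members lower by TMM were lower by library totals, and none of the 22 higher ones was higher. The median log2 difference was −0.39 by TMM and −0.87 by library totals, against 0.01 and −0.48 at the other MEF2D-only sites.

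In MEF2A cKO edgeR called 0 members lower and 1 higher by TMM, while 0% of all sites were lower and 0.0729% higher. At an unadjusted p below 0.05 the same fit had 5 of 270 members lower and 21 higher, and 111 of all 1371 sites in either direction. After adjustment DESeq2 called no member in either direction. The median log2 difference was 0.11 by TMM and 0.04 by library totals. The one member called, chr2:79569664-79570030, had 2.55, 2.62 and 4.54 RPM in MEF2A cKO, against 1.64, 1.06 and 1.65 RPM in Controls (log2 difference 1.20 ± 0.25, edgeR adjusted p = 0.0139). The groups did not overlap, but the call held in only 3 of 6 fits with 1 library left out, and edgeR's adjusted p was 0.0881 by library totals.

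**Figure D2:**
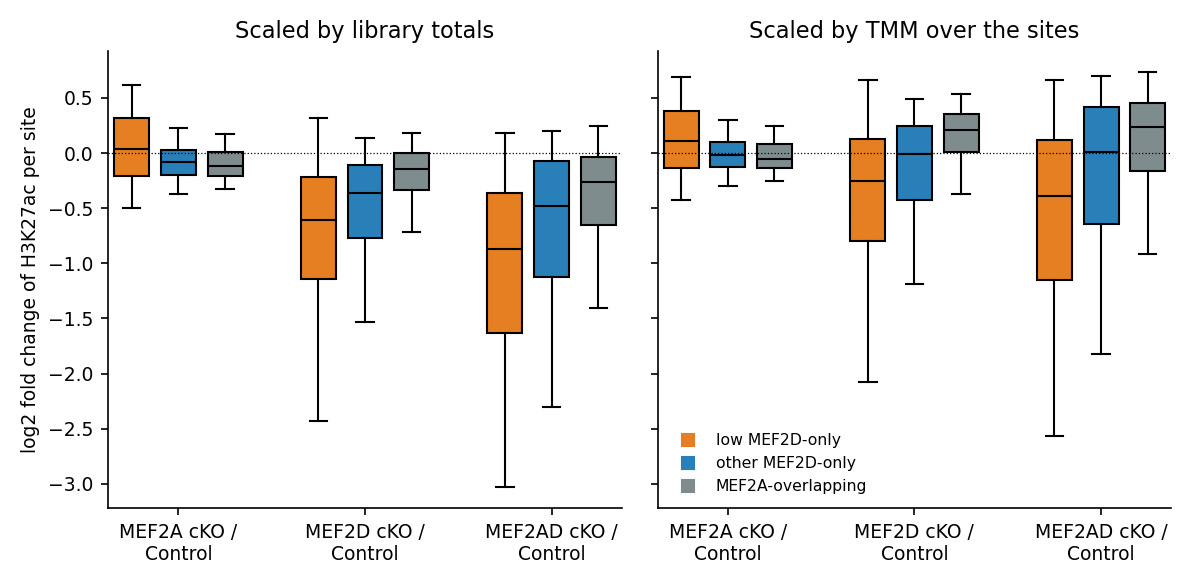
Distribution of the log2 fold of H3K27ac per site (cKO over Control) for the members, the other MEF2D-only sites and the MEF2A-overlapping sites in each line, by library totals at the left and by TMM at the right; boxes span the quartiles and whiskers the 5th to 95th percentile. The members' medians lie at −0.60 (MEF2D) and −0.87 (MEF2AD) by library totals and at −0.26 and −0.39 by TMM, below those of the other MEF2D-only sites.

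The authors' deposited table of MEF2D-only sites lists 282 of the members, with a log2 value of the mean ratio of cKO to Control. In the authors' deposited table the medians over these members were 0.13 in MEF2A, −0.55 in MEF2D and −0.90 in MEF2AD. The value was below 0 at 109, 227 and 242 of the 282 members (38.6%, 80.5% and 85.8%). Of the 914 other sites it was below 0 at 65.9%, 85.3% and 80.2%, in the same order. Over the 914 other sites of the authors' deposited table the medians were −0.07, −0.34 and −0.49.

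Lower calls in the 2 lines were largely nested. By TMM 51 members were lower in both, which is 89.5% of the 57 in MEF2D and 51% of the 100 in MEF2AD. By library totals 97 were lower in both, or 89.8% of 108 and 61.0% of 159. Another 49 members were lower in MEF2AD and not called in MEF2D by TMM (62 by library totals). No member was called in opposite directions. Of all sites, 20.3% were lower in MEF2D and 32.6% in MEF2AD by TMM, and 41.2% and 54.9% by library totals. The overlap over all sites was not counted, so whether the nesting is particular to the members was not tested. The 2 lines have Control groups of their own, but all 9 Control libraries entered the rule.

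The largest falls reached the level of the input. At chr11:80238374-80238574, inside Rhot1, a gene for a GTPase that anchors mitochondria to their transport motors, the libraries labelled MEF2D cKO had 0.0492, 0.0554 and 0.128 RPM, against 1.503, 1.32 and 1.92 RPM in their Controls. The libraries labelled MEF2AD cKO had 0.0698, 0.124 and 0.0817 RPM there, against 1.61, 1.27 and 1.27 RPM. In both lines all cKO values lay below all Control values, and below the mean input level of 0.301 RPM. That mean rests on 1 read in the cKO input and 5 reads in the Control input. The log2 differences were −3.84 ± 0.48 in MEF2D (edgeR adjusted p = 4.54e-09) and −3.27 ± 0.41 in MEF2AD (edgeR adjusted p = 1.35e-09). In MEF2A cKO the same site had 0.850, 0.644 and 0.475 RPM, against 1.52, 0.916 and 1.03 RPM in Controls, without overlap, but the log2 difference of −0.77 ± 0.33 did not pass the test (edgeR adjusted p = 0.461).

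A site inside the zinc finger gene Zfp800, chr6:28332603-28332864, lost nearly all reads. It had 0.148, 0.0554 and 0.0854 RPM in the libraries labelled MEF2D cKO, against 2.09, 1.76 and 1.37 RPM in Controls (log2 difference −3.74 ± 0.47, edgeR adjusted p = 4.02e-09). In the libraries labelled MEF2AD cKO it held 1 read in all, against 115 reads in their Controls. The ratio of pooled reads, scaled by library totals, was 0.00659, with an exact 95% interval of 0.000166 to 0.0375 that covers counting error only, and edgeR gave an adjusted p of 2.51e-13. MEF2A cKO had 0.797, 1.61 and 1.69 RPM, against 2.20, 1.34 and 2.41 RPM in Controls, which overlap.

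Other large falls followed the same pattern across lines. Inside Smarce1, a subunit gene of BAF chromatin remodelling complexes, chr11:99216135-99216498 had 0.0492, 0.111 and 0.128 RPM in the libraries labelled MEF2D cKO, against 1.05, 2.20 and 1.10 RPM in Controls (log2 difference −3.51 ± 0.53, edgeR adjusted p = 5.07e-07). Inside Unc13c, which encodes a synaptic vesicle priming factor of granule cells, chr9:73651023-73651249 had 0.148, 0.221 and 0.0854 RPM, against 1.05, 1.43 and 0.960 RPM in Controls (log2 difference −2.59 ± 0.48, edgeR adjusted p = 2.52e-05). At both sites the MEF2D groups were apart, and the MEF2AD groups were apart too, with log2 differences of −3.21 ± 0.45 and −2.84 ± 0.45.

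Intergenic members fell as far. At chr6:84305156-84305430, 118408 bp from the nearest annotated start, that of Gm10445, the libraries labelled MEF2AD cKO held 3 reads, against 83 in their Controls, a pooled ratio of 0.0274 with an exact 95% counting interval of 0.00554 to 0.0829. The libraries labelled MEF2D cKO held 9 reads there, against 56 (log2 difference −2.60 ± 0.48, edgeR adjusted p = 2.51e-05). At chr6:5715102-5715399, which lies 10240 bp from the start of Dync1i1, a dynein subunit gene, the log2 difference was −2.32 ± 0.45 in MEF2D and −3.68 ± 0.54 in MEF2AD. All of these calls held in each of 6 fits that left out 1 library.

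**Figure D3:**
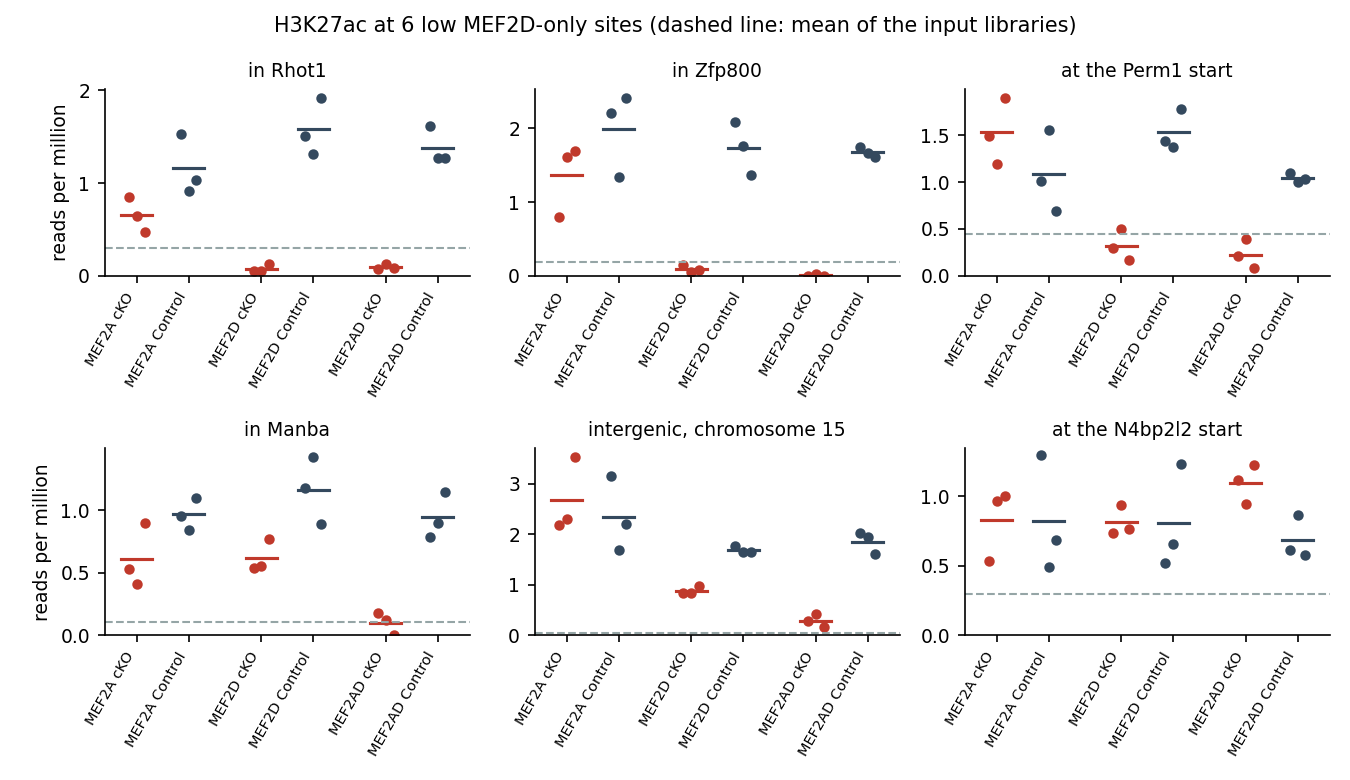
H3K27ac (RPM) at 6 named members in each library, with cKO left of Control in each line group means as lines and the mean input level as a dashed line. At Rhot1 the libraries labelled MEF2D cKO (0.0492 to 0.128 RPM) and MEF2AD cKO (0.0698 to 0.124 RPM) lie under the input line of 0.301 RPM, and their Controls lie above 1.2 RPM. That line rests on 1 read in the cKO input and 5 reads in the Control input.

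Over the members called lower, the remaining level ranged from input level to well above it. The 57 members lower in MEF2D had a median of 0.331 RPM in the libraries labelled MEF2D cKO, against 1.23 RPM in Controls, with a median input level of 0.194 RPM. In cKO, 18 of them were at or below input and 30 at no more than 2 times input, against 2 in Controls. The 100 members lower in MEF2AD had a median of 0.262 RPM in the libraries labelled MEF2AD cKO, against 1.29 RPM in Controls. Of these, 30 were at or below input in cKO and 59 at no more than 2 times input, against 1 in Controls. The other 27 and 41 stayed above 2 times input. Of the members lower by library totals, 20 of 108 in MEF2D and 36 of 159 in MEF2AD were at or below input in cKO, with median cKO levels of 0.427 and 0.366 RPM. These members were picked for their fall, so the counts describe how far it went. The input level of each site rests on few reads, a median of 2 per member and input library.

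The rises were smaller, and most rested on the scaling. By library totals 1 of the 15 rises in MEF2D and 0 of the 22 in MEF2AD were also called. The largest by TMM was at chr1:90896649-90896857, 12261 bp from the start of the predicted gene Gm35381, where the libraries labelled MEF2D cKO had 0.935, 0.886 and 1.24 RPM, against 0.653, 0.549 and 0.411 RPM in Controls. The groups did not overlap, and the log2 difference was 1.27 ± 0.37 by TMM (edgeR adjusted p = 0.00547) and 0.92 by library totals (edgeR adjusted p = 0.0458). In the libraries labelled MEF2AD cKO the same site had 0.803, 0.638 and 0.163 RPM, against 0.377, 0.501 and 0.115 RPM, which overlap.

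Inside Usp29, an imprinted gene for a ubiquitin protease, chr7:6776404-6776613 had 1.26, 1.71 and 2.04 RPM in the libraries labelled MEF2AD cKO, against 1.23, 1.07 and 0.920 RPM in Controls. All 3 cKO values were above all Control values, the first by little. The log2 difference was 1.02 ± 0.24 by TMM (edgeR adjusted p = 0.00021) and 0.53 by library totals (edgeR adjusted p = 0.0534). Inside Celf2, which encodes an RNA-binding splicing regulator, chr2:6815228-6815573 had 1.43, 1.36 and 1.06 RPM, against 0.925, 0.768 and 1.03 RPM, with a log2 difference of 1.09 ± 0.26 by TMM (edgeR adjusted p = 0.000283) and 0.60 by library totals (edgeR adjusted p = 0.0537). Of the sites with the largest rises, those inside Cntn4 and Phactr3 and those near Mirg likewise missed the threshold by library totals in MEF2D, and the one near Mirg lost its TMM call with any of the 6 libraries left out.

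The same comparison was repeated with members chosen only by the Control libraries of the 2 other lines, so that the Controls in each fold played no part in the choice. For MEF2D this gave 311 sites, of which 274 were tested. By TMM 58 of them were lower (21.2%) and 14 higher, with a median log2 difference of −0.27, and by library totals 113 were lower and 1 higher, with a median of −0.62. For MEF2AD it gave 304 sites, 267 of them tested. By TMM 100 were lower (37.5%) and 22 higher, with a median of −0.41, and by library totals 159 were lower and 0 higher, with a median of −0.90. For MEF2A it gave 319 sites with 282 tested, of which 0 were lower and 1 higher by TMM. The counts changed little from those of the full rule. The Controls of the other lines also entered the full rule, so the repeat is not independent of it. Of all sites, 20.3% were lower in MEF2D and 32.6% in MEF2AD by TMM, and 41.2% and 54.9% by library totals.

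Within the range below 2 RPM, the share called did not fall steadily with the level. With sites binned by the Controls of the other lines, lower calls by TMM in MEF2D numbered 1 of 18 tested sites below 0.5 RPM, 23 of 84 from 0.5 to 1, 16 of 82 from 1 to 1.5 and 18 of 90 from 1.5 to 2 RPM. In MEF2AD they numbered 3 of 12, 26 of 81, 38 of 83 and 33 of 91. The lowest bin holds under 20 tested sites, and most of its sites had too few reads to pass the low-count filter.

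**Figure D4:**
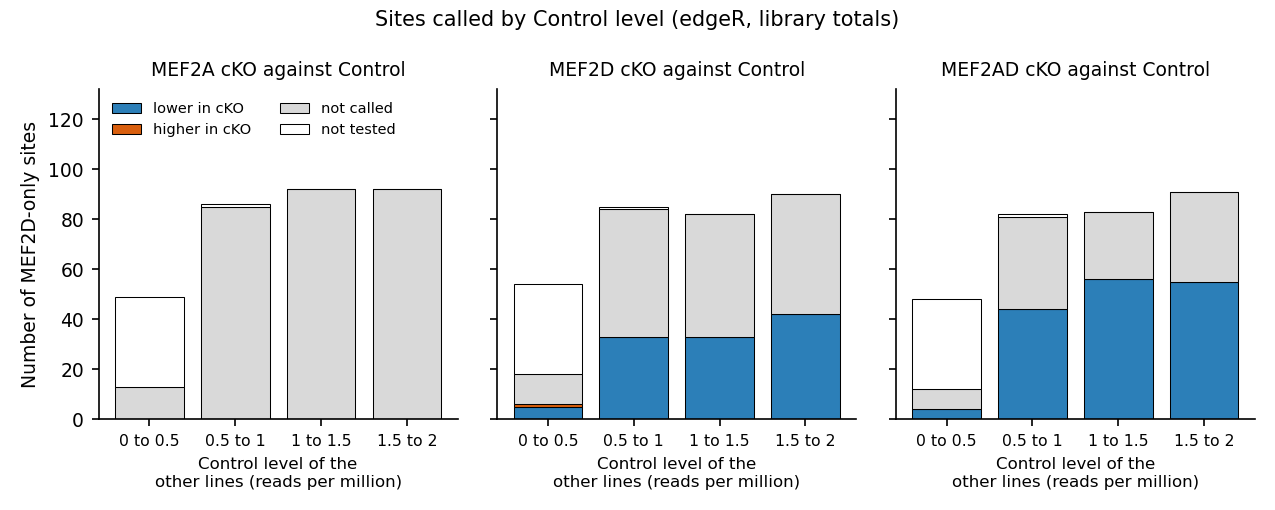
Number of MEF2D-only sites (vertical axis) called lower, called higher, not called and not tested by edgeR with library totals, in 4 bins of the mean Control level of the other 2 lines (RPM), for each line. In MEF2D 5, 33, 33 and 42 sites were lower from the lowest to the highest bin, in MEF2AD 4, 44, 56 and 55, and in MEF2A none.

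Library values that did not overlap between groups gave a like picture without a model. Of the 294 members with reads, all 3 libraries labelled MEF2D cKO were below all 3 Controls at 134 (45.6%), while 48.3% of all sites with reads did the same. For MEF2AD the count was 173 (58.8%), against 57.2% of all sites. In MEF2A cKO it was 12 (4.08%), against 13.7% of all sites, and at 28 members (9.52%) all MEF2A cKO libraries were above all Controls, against 4.48% of all sites. The shares in MEF2D and MEF2AD were near those of all sites.

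Differences between the lines were tested as differences of effects. Against MEF2A, the MEF2D effect was lower at 43 members (15.9%) and higher at 2 by TMM, while 12.6% of all sites were lower and 5.47% higher. The MEF2AD effect was lower than the MEF2A effect at 85 members (31.5%) and higher at 4, while 26.5% and 18.7% of all sites were called. By library totals these counts were 67 lower (24.8%) and 0 higher against MEF2A for MEF2D, while 23.9% and 0.365% of all sites were called, and 124 lower (45.9%) and 0 higher for MEF2AD, while 41.1% and 1.53% were called. At an unadjusted p below 0.05 neither edgeR fit with library totals had a member higher. At that level DESeq2 had 52 of 294 members lower and 5 higher for MEF2D, and 89 lower and 5 higher for MEF2AD. In either direction it had 354 and 647 of all 1406 sites. Between MEF2AD and MEF2D, 1 member was lower and 0 higher by TMM (2.99% of all sites were lower and 0.219% higher), and 5 were lower by library totals (5.84% of all sites). At an unadjusted p below 0.05 the edgeR fit by TMM had 20 of 270 members lower and 6 higher in that contrast. In either direction 231 of all 1371 sites were at that level. DESeq2 called no member there after adjustment. Line and genotype cannot be told apart in these contrasts.

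The member that differed between MEF2AD and MEF2D is chr15:88677652-88677929, in no protein-coding gene body. It had 0.279, 0.412 and 0.164 RPM in the libraries labelled MEF2AD cKO, against 2.02, 1.94 and 1.61 RPM in their Controls. It had 0.837, 0.830 and 0.982 RPM in the libraries labelled MEF2D cKO, against 1.76, 1.65 and 1.65 RPM in theirs. Both cKO groups were below their Controls. The difference of the 2 log2 effects was −1.46 ± 0.42 (edgeR adjusted p = 0.038), and the call held in 3 of 12 fits with 1 library left out.

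Of the 18 members within 1000 bp of a gene start, few fell. In MEF2D 1 was lower and 1 higher by TMM, while 20.3% of all sites were lower and 14.2% higher. In MEF2AD 2 were lower and 6 higher, while 32.6% of all sites were lower and 29.5% higher. By library totals 3 were lower in MEF2D, 4 in MEF2AD and none higher in either. Of all sites, 41.2% and 54.9% were lower and 0.584% and 2.04% higher by that scaling. Of the members over 1000 and up to 50000 bp from a start, 30 of 144 were lower and 6 higher in MEF2D by TMM, and 56 lower and 7 higher in MEF2AD. Beyond 50000 bp the counts were 21 lower and 8 higher of 95 in MEF2D, and 35 lower and 9 higher in MEF2AD. The medians by library totals at the start sites were −0.21 in MEF2D and −0.36 in MEF2AD. Calls at sites of the other classes were not counted by distance. Whether the pattern is particular to the members was not tested.

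The start site that fell in both lines is that of Perm1, known in muscle as a regulator of mitochondrial genes, whose sequence is given above. The member, chr4:156215688-156216024, had 0.295, 0.498 and 0.171 RPM in the libraries labelled MEF2D cKO, against 1.44, 1.37 and 1.78 RPM in Controls (log2 difference −1.93 ± 0.38, edgeR adjusted p = 6.55e-05). It had 0.209, 0.391 and 0.0817 RPM in the libraries labelled MEF2AD cKO, against 1.10, 1.001 and 1.035 RPM (log2 difference −1.38 ± 0.36, edgeR adjusted p = 0.000997). The groups were apart in both lines. In MEF2A cKO it had 1.49, 1.20 and 1.90 RPM, against 1.02, 1.55 and 0.689 RPM, which overlap.

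Perm1 RNA was 4.42, 4.93, 3.47 and 5.41 CPM in the libraries labelled MEF2D cKO, against 6.74, 6.996, 5.53 and 6.18 CPM in Controls. Those groups did not overlap, but the log2 difference of −0.41 ± 0.15 did not pass the test (limma adjusted p = 0.122). In MEF2AD it was −0.27 ± 0.15 (limma adjusted p = 0.617). The other start site that was lower in MEF2AD lies 684 bp from the start of Ky, a gene of the muscle cytoskeleton, with 0.768, 1.19 and 0.327 RPM in the libraries labelled MEF2AD cKO, against 2.40, 1.84 and 1.495 RPM (log2 difference −0.65 ± 0.24, edgeR adjusted p = 0.0169, held in 3 of 6 fits with 1 library left out).

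The Atf3 and 9330104G04Rik sites, which hold the exact consensus, were not called in any line. The Atf3 site, at the start of a stress-induced transcription factor gene, had 1.13, 0.720 and 1.15 RPM in the libraries labelled MEF2D cKO, against 0.849, 1.70 and 1.37 RPM in Controls. It had 0.907, 0.515 and 0.654 RPM in the libraries labelled MEF2AD cKO, against 0.857, 0.968 and 0.575 RPM. Both pairs of groups overlap.

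The N4bp2l2 site was called higher in MEF2AD by TMM, with 1.12, 0.947 and 1.23 RPM in the libraries labelled MEF2AD cKO, against 0.617, 0.868 and 0.575 RPM in Controls (log2 difference 1.03 ± 0.31, edgeR adjusted p = 0.00304). By library totals the log2 difference was 0.55 and did not pass (edgeR adjusted p = 0.135). N4bp2l2 RNA did not pass the test there either, with a log2 difference of 0.04 ± 0.06 (limma adjusted p = 0.951). Start sites higher in MEF2AD by TMM also included those of Rpl41, Rheb and Lgmn, which encode a ribosomal protein, a GTPase that activates mTOR signalling and a lysosomal protease. None of these was higher by library totals.

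RNA did not enter the rule and was tested on its own libraries. A gene was linked to a member that overlaps it or lies within 5000 bp, which gave 167 genes of the RNA table at 164 members, and 28 of these genes also carry a site of another class. Their median level was 74.1 CPM, against 20.9 CPM over all 15469 genes. By limma with Benjamini-Hochberg adjustment over all genes, 17 were lower and 6 higher in the libraries labelled MEF2D cKO, or 10.2% and 3.59%, while 2.33% of all genes were lower and 2.59% higher. Without MEF2D cKO 4, MEF2D cKO 2 or MEF2D Control 1 the total of 23 was 9, 14 or 8. Higher expressed genes are easier to call, and whether that accounts for the share was not tested.

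In the libraries labelled MEF2AD cKO, 8 linked genes were lower and 10 higher, or 4.79% and 5.99%, while 1.26% and 1.16% of all genes were called (10.8% in all, against 2.42%). In MEF2A cKO 1 was lower (Igsf21, in no fit with 1 library left out) and 2 were higher (Pcbp3 and Adamts17), or 1.80% in all, while 0.284% of all genes were called. Among the 139 genes with no site of another class, 12 were lower (8.6%) and 5 higher (3.6%) in MEF2D. Of all genes, 2.33% and 2.59% were called there. In MEF2AD 1 of the 139 was lower (0.72%) and 8 were higher (5.8%), while 1.26% and 1.16% of all genes were called. The genes at other MEF2D-only sites, with a median of 77.2 CPM, were called at a like rate in MEF2D, with 76 lower and 14 higher of 597 (15.1%, against 13.8% here and 4.93% of all genes). They gave 79 lower (13.2%) and 23 higher (3.85%) in MEF2AD, and those at MEF2A-overlapping sites 25 lower (20.7%) and 1 higher (0.826%) of 121. Whether these splits differ was not tested.

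The named genes lower in MEF2D have varied roles. Sema5a, an axon guidance gene, had 70.3, 63.5, 58.6 and 62.1 CPM in the libraries labelled MEF2D cKO, against 86.9, 91.2, 82.9 and 76.7 CPM in Controls (log2 difference −0.40 ± 0.08, limma adjusted p = 0.00448). Dlgap4, a postsynaptic scaffold gene, had 175.2, 177.4, 170.4 and 160.6 CPM, against 218.9, 199.4, 209.7 and 201.6 CPM (log2 difference −0.28 ± 0.05, limma adjusted p = 0.00113). In both genes the groups were apart, and both calls held in 8 of 8 fits with 1 library left out. Nrg1, Kazn, Tiam1, Agap1 and Tcof1 were lower too, by 0.28 to 0.37 on the log2 scale, but their calls were lost in 1 or more of the 8 fits.

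Spon1, which encodes an extracellular matrix protein, was lower in both lines. It had 102.4, 87.3, 97.1 and 98.4 CPM in the libraries labelled MEF2D cKO, against 130.0, 125.9, 119.2 and 119.4 CPM in Controls (log2 difference −0.36 ± 0.08, limma adjusted p = 0.00724). It had 72.5, 95.5, 95.04 and 104.4 CPM in the libraries labelled MEF2AD cKO, against 116.6, 125.9, 132.6 and 125.6 CPM (log2 difference −0.45 ± 0.08, limma adjusted p = 0.000571). The groups were apart in both lines. It was the one gene lower in MEF2AD that carries no site of another class, and its own member site was not called by TMM in either line, though it was lower in MEF2AD by library totals (log2 difference −1.07, edgeR adjusted p = 0.024).

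The other genes lower in MEF2AD were Cers6 (a ceramide synthase), Tyro3 (a receptor tyrosine kinase), Manba, Igsf21 (a synaptic adhesion protein), Pitpnm2, Agap1 and Adam23 (a surface protein of neurons), and each also carries a site of another class. With 1 library left out, the call of Pitpnm2 held in 2 of 8 fits, that of Agap1 in 3 and that of Manba in 6. Manba, a lysosomal mannosidase gene, is one of 2 genes whose members are in the authors' deposited cluster sheet. Its RNA was 15.01, 16.8, 13.4 and 13.6 CPM in the libraries labelled MEF2AD cKO, against 23.3, 21.7, 18.9 and 18.6 CPM in Controls (log2 difference −0.46 ± 0.11, limma adjusted p = 0.0125). Its member, chr3:135516891-135517120, had 0.175, 0.124 and 0 RPM, against 0.788, 0.901 and 1.15 RPM (log2 difference −2.34 ± 0.44, edgeR adjusted p = 9.1e-06). Both measures were apart between the groups.

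Genes that were higher included Trhde, an enzyme gene for the breakdown of thyrotropin-releasing hormone, and Efr3b, a membrane anchor of a phosphatidylinositol kinase. Trhde had 99.8, 98.3, 103.0 and 110.3 CPM in the libraries labelled MEF2D cKO, against 76.7, 72.9, 67.2 and 79.4 CPM in Controls (log2 difference 0.47 ± 0.07, limma adjusted p = 0.000254). Efr3b had 291.2, 268.9, 295.3 and 281.5 CPM, against 226.6, 240.9, 240.0 and 235.9 CPM (log2 difference 0.27 ± 0.05, limma adjusted p = 0.00133). In both genes the groups were apart, and both were higher in MEF2AD too, by log2 differences of 0.37 and 0.29. Slc8a1, a sodium-calcium exchanger gene, was higher in MEF2AD, with 109.0, 111.5, 106.5 and 97.3 CPM in the libraries labelled MEF2AD cKO, against 78.2, 82.6, 63.4 and 79.9 CPM (log2 difference 0.48 ± 0.09, limma adjusted p = 0.000939).

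The largest RNA change was that of Adamts17, a gene for a secreted metalloprotease. It had 11.3, 16.1, 11.9 and 12.3 CPM in MEF2A cKO, against 4.16, 4.32, 3.96 and 3.62 CPM in Controls (log2 difference 1.46 ± 0.14, limma adjusted p = 7.56e-07). It had 9.57, 12.5, 16.4 and 11.4 CPM in the libraries labelled MEF2AD cKO, against 3.82, 4.49, 3.005 and 5.22 CPM (log2 difference 1.39 ± 0.14, limma adjusted p = 4.47e-07). It did not pass in MEF2D (log2 difference −0.02 ± 0.14, limma adjusted p = 0.957). By limma it was the one linked gene whose RNA effect differed between MEF2D and MEF2A or between MEF2AD and MEF2D. Tyro3 had a log2 difference of −0.59 in the second contrast (limma adjusted p = 0.19), which passed in DESeq2 (adjusted p = 0.029) and in limma with the replicate block (adjusted p = 0.000517). The block assumes a pairing by number, which was not established for the RNA libraries of the MEF2AD or the MEF2D line. In MEF2D less MEF2A, 0.0323% of all genes were lower and 0.00646% higher (0.0388% in all), and in MEF2AD less MEF2D 0.084% were lower and 0.0194% higher (0.103% in all). The Adamts17 member, chr7:67055516-67055874, did not pass the low-count filter and lies 175289 bp from the annotated Mef2a gene. Mef2a is deleted by label in both lines where Adamts17 was higher.

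**Figure D5:**
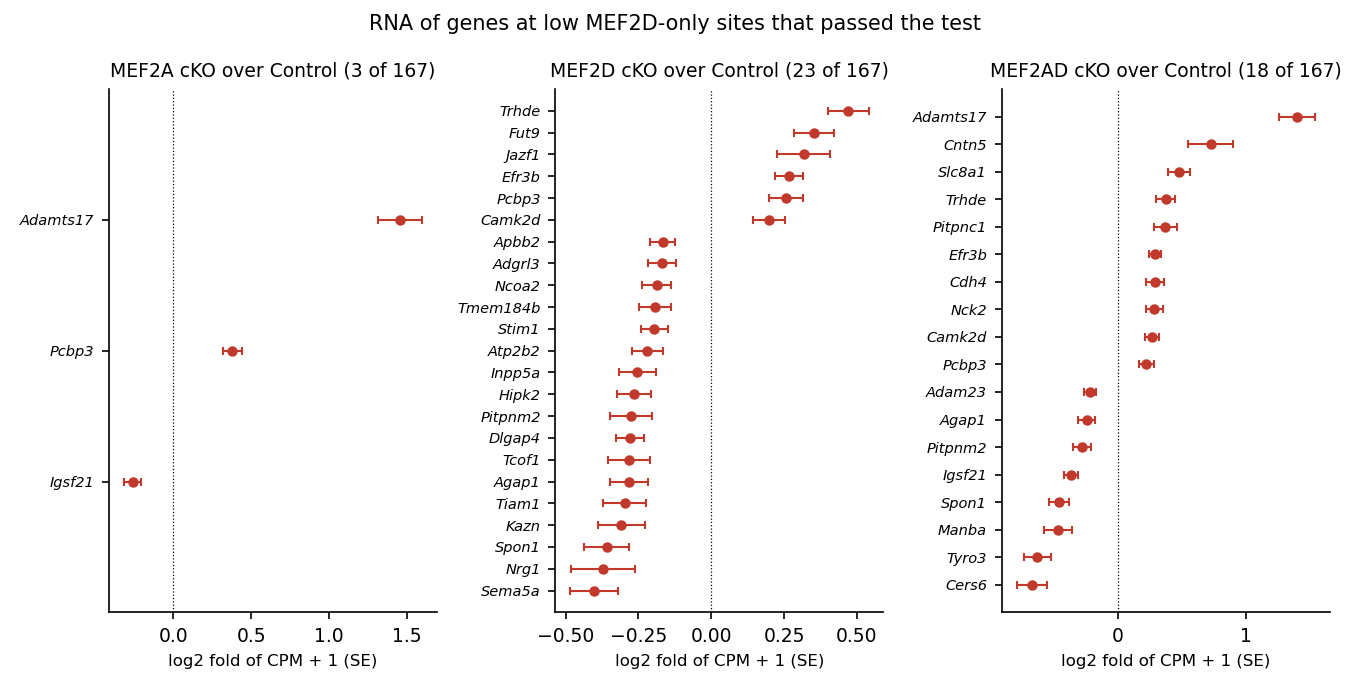
Log2 fold of CPM + 1 (cKO over Control, points, with SE) of each linked gene that passed the limma test, by line. Genes lie on both sides of 0 in MEF2D (17 lower, 6 higher) and MEF2AD (8 lower, 10 higher), and the value farthest from 0 is that of Adamts17 in MEF2A (1.46).

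The calls on RNA and on H3K27ac at the same members were set side by side. The 17 genes lower in MEF2D have 18 members, of which 2 were lower in H3K27ac by TMM and 6 by library totals, while 21.1% and 40.0% of all members tested were lower. These 2, named after their values were seen, lie inside Stim1, the calcium sensor of the endoplasmic reticulum, and Ncoa2, a nuclear receptor coactivator gene. With 1 library left out, the RNA call of Stim1 held in 6 of 8 fits and that of Ncoa2, whose groups overlap, in 2 of 8. The 8 genes lower in MEF2AD have 8 members, of which 3 were lower by TMM, inside Manba, Pitpnm2 and Igsf21, and 7 by library totals, while 37.0% and 58.9% of all members tested were lower. Conversely, the 57 members lower in MEF2D by TMM are linked to 28 genes. Of these genes, 2 were lower in RNA and 1 higher, while 10.2% of all linked genes were lower and 3.59% higher. In all genes the shares were 2.33% and 2.59%. The 100 members lower in MEF2AD are linked to 53 genes. Of these genes, 3 were lower and 0 higher by limma, while 4.79% of all linked genes were lower and 5.99% higher. In all genes the shares were 1.26% and 1.16%.

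By TMM 1 gene went the opposite way from its site, Fut9, which encodes the fucosyltransferase that makes the Lewis X carbohydrate on neurons. Its member, chr4:25721652-25721938, had 0.591, 0.221 and 0.341 RPM in the libraries labelled MEF2D cKO, against 2.22, 2.14 and 1.99 RPM in Controls (log2 difference −2.08 ± 0.31, edgeR adjusted p = 4.53e-07). Fut9 RNA was 318.4, 309.8, 293.3 and 311.4 CPM in the libraries labelled MEF2D cKO, against 210.7, 268.4, 220.9 and 269.8 CPM (log2 difference 0.35 ± 0.07, limma adjusted p = 0.00347). In both measures the groups were apart, lower in cKO for the mark and higher in cKO for the RNA. Both calls held in each fit with 1 library left out, 6 of 6 for the site and 8 of 8 for the RNA. In MEF2AD the site was 3.99 times lower by TMM (edgeR adjusted p = 6.09e-08), and Fut9 RNA was not called (limma adjusted p = 0.13). By library totals the site of Pcbp3 was also lower where its RNA was higher, in MEF2D (edgeR adjusted p = 0.0259) and MEF2AD (edgeR adjusted p = 0.00394), as were those of Trhde and Camk2d in MEF2AD (edgeR adjusted p = 0.0157 and 0.000539).

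A member inside Mef2c, the gene of another MEF2 factor, lies at chr13:83603915-83604194, with means of 0.712 RPM over the cKO libraries and 0.718 RPM over the Control libraries. It was tested and not called in any line, with log2 differences of 0.47 ± 0.40 in MEF2A, −0.16 ± 0.42 in MEF2D and 0.51 ± 0.35 in MEF2AD by TMM (lowest edgeR adjusted p = 0.195). Mef2c RNA did not pass the test in any line, with log2 differences of 0.01 in MEF2A, 0.04 in MEF2D and 0.16 in MEF2AD (lowest limma adjusted p = 0.376).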

How the data were processed

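H3K27ac was measured by ChIP-seq and RNA by RNA-seq in mouse cerebellum. The deposited H3K27ac table holds whole read counts per site and library, per the file headers. The deposited RNA table holds log2 CPM values per library with a prior of 0.5 reads, from which whole reads were recovered (100% of values within 0.05 of a whole number; 9178139 to 23160475 reads per library). The authors' deposited log2 ratios per site are quoted as theirs. The RNA table also holds the authors' adjusted p-values, per the file headers, from a test not given in the sources used here; they were not used. Bowtie2 2.3.4.2, STAR 2.6, MACS2 and mm10 are named in the submitters' processing notes, without their roles. A further 102 columns of per-sample values were not used.

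Library totals are those the deposited H3K27ac table gives above its columns, and counts were divided by them to give RPM. Site counts were fitted in edgeR 4.0.16 (quasi-likelihood, all 18 ChIP libraries, low-count filter, TMM over the sites, R 4.3.3), with library totals and DESeq2 1.42.0 as alternatives. RNA was fitted in limma 3.58.1 on log2(CPM + 1) with all 24 libraries, after 91 repeated entries were dropped from 15560. Count tests on the recovered reads called 2, 22 and 19 linked genes in MEF2A, MEF2D and MEF2AD (edgeR). The fold changes of low genes are understated on that scale. P-values were adjusted by Benjamini-Hochberg over all features. The code was tested on simulated data. Labels do not say that replicates are separate animals, so p-values measure the spread between these libraries.

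Sites and genes were named by a rule: up to 6 largest falls and 6 largest rises among members called in each H3K27ac comparison, members at the ends of the level range, up to 8 largest falls and rises among linked genes called, and linked genes of start sites. The members and lists were chosen with earlier results of these data known. No genome was used, so the rule for choosing sequences could not be applied, and exons and introns were not assigned. Same-numbered RNA libraries of the MEF2A line deviated together (r of 0.40, 0.50, 0.24 and 0.20), which pairs them, and the block left the count of linked genes called at 3. Same-numbered H3K27ac libraries of the MEF2A line deviated together more weakly (r of 0.16, 0.12 and 0.096), and every other pairing there was negative. Same-numbered RNA libraries of the MEF2D line gave r of 0.065, 0.31, 0.20 and 0.23, but cKO 1 with Control 2 gave 0.22. Whether these libraries are paired was not settled. The MEF2AD line and the H3K27ac libraries of the MEF2D line were not paired by this check.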

Additional observations from a re-analysis of the deposited data

Results flagged for a closer look

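In 12 of 204 groups of 4 RNA libraries tested, 1 library stood far from the other 3, and chance alone gives about 1 in 20. The lone values were 96.9 CPM for Tmem184b and 32.9 CPM for Tcof1 in MEF2A cKO, and 33.2 CPM for Tcof1, 168.1 CPM for Adgrl3 and 285.4 CPM for Hipk2 in MEF2AD cKO. In the libraries labelled MEF2D cKO they were 109 CPM for Pitpnm2, 91.1 CPM for Stim1, 126.9 CPM for Adgrl3 and 7.72 CPM for Nrg1. In Controls they were 140.8 CPM for Kazn in the MEF2A line, 153 CPM for Igsf21 in the MEF2D line and 231.2 CPM for Camk2d in the MEF2AD line. The genes outside the naming rule appear here for these values only.

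The effect on H3K27ac differed between lines, by edgeR's test of the difference with TMM. It was lower in MEF2D than in MEF2A at 43 members (15.9%), while 12.6% of all sites were lower. In MEF2AD it was lower than in MEF2A at 85 members (31.5%), while 26.5% of all sites were lower. In MEF2AD it was lower than in MEF2D at 1 member (0.37%), while 2.99% of all sites were lower. The RNA effect on Adamts17 was lower in MEF2D than in MEF2A by a log2 difference of −1.49 (limma adjusted p = 3.75e-04), and higher in MEF2AD than in MEF2D by a log2 difference of 1.41 (limma adjusted p = 7.14e-04). Line and genotype cannot be told apart in these differences.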

How the results depend on the processing

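Counts below are of members, or linked genes, called in either direction. With library totals the H3K27ac counts were 0 in MEF2A (1 by TMM), 109 in MEF2D (72 by TMM) and 5 for MEF2AD against MEF2D (1 by TMM). DESeq2 gave 0 in MEF2A and 0 for MEF2AD against MEF2D. Fitting only the groups compared gave 3 in MEF2A. A limit of 1.5 RPM in place of 2 gave 0 in MEF2A, 80 in MEF2AD (122 by the rule) and 0 for MEF2AD against MEF2D, and a limit of 3 RPM gave 136 in MEF2D, 229 in MEF2AD and 5 for MEF2AD against MEF2D. These limits change how many sites are members. Members chosen by the other lines' Controls, with library totals, an alternative chosen after seeing the data, gave 0 in MEF2A and 114 in MEF2D. For RNA in MEF2AD (18), fitting only the groups compared gave 7 and linking by the nearest start gave 8. Promoter windows with the consensus numbered 2 when exact and 9 with 1 mismatch. The cause of these changes was not tested.

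With the replicate block the H3K27ac counts were 3 in MEF2A, 76 in MEF2D, 128 in MEF2AD and 3 for MEF2AD against MEF2D, and the RNA counts were 3, 37 and 24. Outside the MEF2A RNA a pairing of libraries by number was not established.

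Leaving out 1 library at a time gave H3K27ac counts of 0 to 3 in MEF2A, 53 to 63 in MEF2D, 99 to 116 in MEF2AD and 0 to 2 for MEF2AD against MEF2D. RNA counts ran from 8 to 21 in MEF2D (23 with all libraries), 12 to 19 in MEF2AD and 2 to 2 in MEF2A.

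The search of the central 200 bp of each site was not run. Few reads per site limit the lowest members: 24 with reads did not pass the low-count filter. Without the filter edgeR tested them and called 1 lower and 1 higher, both in MEF2AD.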
